A study of Drosophila melanogaster with 6 samples.

Results

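These data describe engaged RNA polymerase II (Pol II) at promoters of Drosophila melanogaster S2 cells after RNAi against polybromo (Pbro), compared with S2 cells given RNAi against LacZ. All genes that the deposited sheets list for this comparison in the promoter window were taken, whichever way they changed. They came to 2510 genes with 1 transcript each, of 5528 transcripts listed anywhere in the series. Of the 2510 listed promoters, 332 (13.2%) had significantly fewer PRO-seq reads after Pbro RNAi than after LacZ RNAi, 47 (1.87%) had significantly more, and 2131 (84.9%) were listed as unchanged. These are called the down, up and unchanged classes here.

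S2 cells are an established line from Drosophila embryos with features of hemocytes, the blood cells of the fly. The Pbro RNAi cells received 493 base pairs of double-stranded RNA matching polybromo, and the control LacZ RNAi cells received 835 base pairs matching a bacterial gene that flies lack. Both were given 150 µg of dsRNA, again 150 µg after 2.5 days, and were harvested after another 2.5 days. Each treatment had 2 biological replicate libraries, and the third treatment of the series, BEAF RNAi, was set against the same LacZ libraries. No genotype or drug differed between the groups.

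The dsRNA defines the Pbro RNAi group, so the gene part of the primers for its template is shown, in lower case and 5′ to 3′. These are the letters after the leading stretch, carrying the T7 promoter, that the fly primers of the series share.

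polybromo forward: actactacgacattatcaggg

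polybromo reverse: tctgtgcgggacaactttc

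Pbro is a subunit of PBAP, a chromatin remodeling complex of the SWI/SNF class that uses ATP to move or evict nucleosomes. PBAP shares its ATPase, Brahma, with the related BAP complex, and Pbro carries bromodomains, which bind acetylated histones. At many fly genes Pol II starts transcription and then halts a short way downstream of the start site, a state called promoter-proximal pausing. PRO-seq labels the RNA held by engaged Pol II, so reads near a start site report mostly on this paused polymerase. Pausing is known to be strong at many developmental and stimulus-responsive genes and at promoters bound by GAGA factor.

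The classes rest on the study's own test, with 2 libraries against 2. Every promoter of the down and up classes had an adjusted p under 0.05 and every promoter of the unchanged class had one over 0.9. Promoters between these limits are in no sheet, so each percentage below is a share of the listed promoters and not of all promoters of the genome. The sheets also hold a fold change and an adjusted p per promoter from that test, which were left out by choice, and they hold no read counts or values per library from which a size of change and its error could be computed again. The classes are therefore described by the genes that fill them. A promoter with many reads is called more readily than a promoter with few, and the part that read number plays in the patterns below was not tested. In a bulk assay of this kind, fewer cells with an active promoter and less Pol II per promoter cannot be told apart. The 95% Wilson intervals in brackets cover counting error alone and treat promoters as independent, which neighbours are not.

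The targeted gene itself stood in the unchanged class. The polybromo row lies on the minus strand at chr3R:20625691-20630977 in build dm3. RNAi destroys the transcript after it is made, so this value does not measure how far the Pbro protein was depleted. All 8 genes with a row on the list for PBAP and BAP were unchanged, among them brm (the ATPase Brahma), Snr1 and Bap60, which both complexes share, Bap170, which is particular to PBAP, and Brd7-9. M1BP, a zinc finger protein that binds promoters of housekeeping genes, was unchanged. Trl, which encodes GAGA factor, and BEAF-32 had no row in the 3 sheets and were not analysed here. None of the 7 listed Polycomb and trithorax genes was called, Pc, pho, trx and ash1 included. Of all listed promoters 84.9% were unchanged, so these counts of 8 and 7 unchanged genes do not set the lists apart.

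Marker genes of hemocytes stood in the down class. All 6 hemocyte markers with a row were down, beside 13.2% of all listed promoters. They were Col4a1 and vkg, the chains of type IV collagen, Pxn, an extracellular matrix peroxidase, eater, a phagocytic receptor, gcm, a transcription factor of the blood and glial lineages, and PPO3, a prophenoloxidase. The other markers on the list had no row, and a marker with an adjusted p between the limits above would be among these. Markers of other cell types were scarce. No neuron or fat body marker had a row, both germline markers with a row (spn-E and tej) were unchanged, the only muscle marker with a row (Mlc2, a myosin light chain) was down, and both glial markers with a row (Eaat1, a glutamate transporter, and moody, a receptor of the blood-brain barrier) were down.

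Down promoters were concentrated in the combined lists of the cell surface, signalling and development and were missing among housekeeping genes. The single lists differed, and several signalling lists lay near the share of all listed promoters, as given below. In 12 lists of the first kind combined, 47 of 110 listed promoters were down (42.7%, 33.9 to 52.1%) and 2 were up. The hemocyte markers above are among these 12 lists, as are the ecdysone, immune, and cell death and JNK lists. Of all listed promoters, 13.2% were down. In 14 lists of housekeeping functions, 0 of 188 were down (an upper Wilson bound of 2.0%) and 2 were up. The median transcript length was 5.62 kb in the first group and 1.66 kb in the second. The lists were put together with earlier results of these data known, so the contrast between the 2 groups describes these genes and is not independent evidence.

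**Figure D1:**
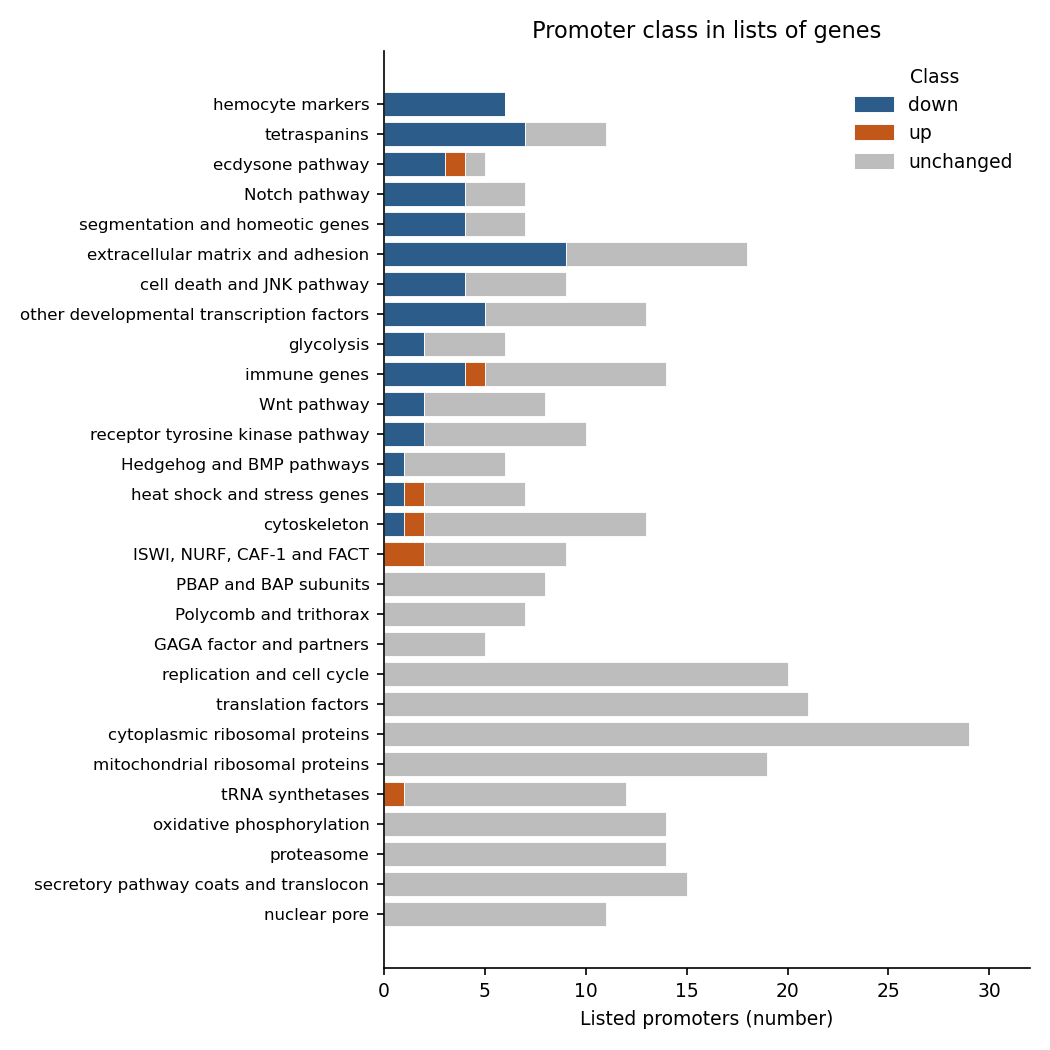
Number of listed promoters of each gene list shown in the down, up and unchanged classes (Pbro RNAi against LacZ RNAi), 1 bar per list. Lists that hold down promoters stand above and housekeeping lists below. Between them are lists of chromatin regulators and promoter-binding proteins, which hold no down promoter. Not all lists are drawn. All 6 listed hemocyte markers and 7 of 11 tetraspanins were down, while the bars of replication, translation and ribosomal protein genes hold no down promoter.

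Cell surface and matrix genes came first, beside 13.2% down among all listed promoters. Of 11 listed tetraspanins, membrane proteins with 4 spans that organise other surface proteins, 7 were down and 4 (Tsp39D, Tsp42Ef, Tsp86D and Tsp96F) were unchanged. The down tetraspanins were Tsp42Ed, Tsp42Eg, Tsp42Ei, Tsp42Ej and Tsp42El of a single cluster, Tsp5D on X and Tsp74F on 3L. Of 18 listed matrix and adhesion genes, 9 were down. Besides both collagens these were the immunoglobulin adhesion molecules Fas2, Fas3, Nrg and hbs, the integrin subunit scb, the matrix protease Mmp1, and tey, a nuclear regulator that the list also holds. The 9 unchanged members included LanB1 (a laminin chain), SPARC, Mmp2, Sdc (syndecan) and mew (an integrin subunit).

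The signalling lists had small counts, beside 13.2% down of all listed promoters. In the Wnt list 2 of 8 were down (25.0%), and in the list of receptor tyrosine kinase pathways 2 of 10 (20.0%). The Hedgehog and BMP list had 1 of 6 down (16.7%). With so few members, these shares are not far from that of all listed promoters. The Notch list had 4 of 7 down (57.1%). In the Wnt list the ligands wg and Wnt4 were down, whereas the receptors fz and fz2, the intracellular components Apc and Axn, the ligand carrier wls and the extracellular inhibitor Notum were unchanged. Of the receptor tyrosine kinase genes, pyr and ths, the ligands of an FGF receptor, were down. The ligands bnl and spi were unchanged, as were Ras85D, csw, aop and pnt further along the pathway. Of the Hedgehog and BMP genes only myo, a ligand of the TGF-beta family, was down, and ptc, smo, gbb, sax and Smox were unchanged. The down genes of the Notch list were Ser, a ligand of Notch, numb, an inhibitor of Notch, and the targets E(spl)mgamma-HLH and E(spl)m2-BFM. The unchanged Notch genes were mam (a coactivator), H (a corepressor) and the target E(spl)mbeta-HLH.

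Transcription factors of development were split, and their counts stand beside 13.2% down among all listed promoters. Among 7 listed segmentation and homeotic genes, the gap genes Kr and hb, the Pax gene gsb-n and wg were down, whereas gsb, slp1 and tsh were unchanged. Of 13 other developmental transcription factors, the LIM homeodomain genes Awh, Lim1 and tup, the limb gene Dll and Sox15 were down. The other 8, among them Mef2, pnr, da, ttk and ap, were unchanged.

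The ecdysone and immune lists held calls in both directions, and the cell death and JNK list held down calls alone. Among all listed promoters, 13.2% were down and 1.87% were up. EcR, the ecdysone receptor, and Eip74EF, a transcription factor that ecdysone induces, were down, as was Ldh (lactate dehydrogenase), which is on the ecdysone list under its older name. By contrast, sro, which acts in the synthesis of ecdysone, was up, and Eip63E was unchanged. In the cell death and JNK list, 4 of 9 were down: the death inducers rpr and skl, the TNF ligand egr, and Mmp1. The third death inducer, hid, was unchanged, like the caspase gene Dronc and the JNK phosphatase gene puc. Of 14 immune genes, the peptidoglycan recognition genes PGRP-LA and PGRP-LB, the receptor Tl and the JAK/STAT ligand upd1 were down, and spz6, of the family of Toll ligands, was up. The 9 unchanged immune genes were the receptors 18w, Tollo and dome and the ligand spz, as well as Socs36E, Stat92E, dl, key and pirk. The down share of the immune list was 28.6%, and 23.1% with symbols as the sheets write them.

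A few calls fell in lists that were otherwise unchanged. Of 7 listed stress genes, stv, a cochaperone, was down and Thor, a repressor of translation initiation, was up, while Hsp83, Hsp60A, Hsp23, foxo and Sesn were unchanged. Of 13 cytoskeletal genes, betaTub97EF was down and CLIP-190, which binds microtubule ends, was up. The down share was 14.3% in the stress list and 7.69% in the cytoskeletal list, near the 13.2% of all listed promoters. Of 6 genes on the list for glycolysis, fbp and Ldh, which is also on the ecdysone list, were down. Gapdh2, Pfrx, Pglym78 and PyK were unchanged. In the list of other chromatin remodelers and histone chaperones, 2 of 9 were up, beside 1.87% of all listed promoters: Caf1-55, a histone-binding subunit shared by several chromatin complexes, and dre4, a subunit of FACT. Iswi, E(bx), Acf, Ino80, kis and asf1 were among the unchanged members.

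Among housekeeping genes the unchanged class held all 29 listed cytoplasmic ribosomal proteins, all 19 mitochondrial ribosomal proteins, all 21 translation factors, all 20 genes of replication and the cell cycle, all 15 secretory pathway genes, all 14 proteasome genes and all 14 genes of oxidative phosphorylation. It also held 8 of 8 listed genes of Pol II and its general factors, 7 of 7 of Mediator, 9 of 9 splicing factors, 11 of 11 nuclear pore genes and 6 of 6 chaperonin genes. The only calls were PheRS-m, a mitochondrial tRNA synthetase, of 12 synthetases, and Vha100-4, of 3 V-ATPase genes, and both were up. Among all listed promoters 84.9% were unchanged and 1.87% were up. A short list that is wholly unchanged is therefore not set apart by itself.

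Some families were picked after the classes had been seen, and their counts are given as a description. Of all listed promoters, 13.2% were down. Of 16 listed cytochrome P450 genes, whose enzymes act on toxins, hormones and lipids, 11 were down. These were Cyp12a4, Cyp12a5, Cyp28a5, Cyp4ad1, Cyp4d8, Cyp6a13, Cyp6a17, Cyp6a23, Cyp6d4, Cyp6w1 and Cyp9f2. The unchanged members were Cyp12b2, Cyp12c1, Cyp6a8, Cyp6a9 and Cyp6u1. Surface proteins with immunoglobulin domains were down in 11 of 14 cases, including DIP-epsilon, DIP-kappa, dpr6, beat-IIIc, bdl, otk and otk2. Transporters of the ABC family were down in 3 of 5 cases (Mdr49, Mdr65 and Sur), and other solute carriers in 6 of 12 cases (Eaat1, MFS3, Ndae1, Orct2, Slc45-1 and path). Glutathione transferases had 2 of 7 down (GstE2 and GstO3). Rab GTPases, which direct vesicle traffic, had 0 of 9 down. The Vps genes of endosomal sorting had 0 of 10 down and 1 up (Vps26, a retromer subunit). With so few listed members, these counts of 0 are not far from the share of all listed promoters.

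The up class was small and mixed. It held 47 promoters, of which 11 are known by a CG number only. Signalling enzymes and receptors included Abl (a tyrosine kinase), Nuak (a kinase related to AMPK), IP3K2 (an inositol phosphate kinase), dnc (a phosphodiesterase that breaks down cyclic AMP), CngB (a channel of the cyclic nucleotide family), Dh31-R (a neuropeptide receptor), dnt (a receptor of the Ryk family) and mthl11. Regulators of small GTPases or related to them were RhoGAP5A, RhoBTB and CenG1A. Metabolic genes were Cat (catalase) and Prps (phosphoribosyl pyrophosphate synthetase), and RNA-binding proteins were Hrb87F and Larp4B. The remaining named promoters included luna (a Krüppel-like transcription factor), Wdr62, Ccz1, mv, bcn92, bdg, fan and hng3.

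Genes with a down promoter were longer than those with an unchanged promoter. The transcript on the row, from start to end, had a median of 4.03 kb in the down class (95% interval of the median 3.46 to 4.85 kb), 2.73 kb in the up class (1.78 to 4.12 kb) and 2.51 kb in the unchanged class (2.41 to 2.63 kb). The middle 50% of down genes ran from 2.13 to 10.0 kb, and that of unchanged genes from 1.57 to 4.56 kb. The intervals of the down and unchanged medians did not overlap, whereas that of the up class overlapped both. The share of down promoters was 8.0% (73 of 913) for transcripts under 2 kb, 11.9% (116 of 977) from 2 to 5 kb, 17.9% (60 of 336) from 5 to 10 kb, 29.9% (49 of 164) from 10 to 20 kb, 27.2% (25 of 92) from 20 to 50 kb and 32.1% (9 of 28) from 50 kb. From 10 kb on, these shares did not differ beyond their intervals.

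The longest genes of the down class were CG43759 (96.5 kb), SKIP (77.7 kb) and CG17839 (76.6 kb), and the shortest were CG31886 (0.803 kb), CG6310 (0.820 kb) and E(spl)mgamma-HLH (0.846 kb). In the up class the longest were dnc (60.1 kb), Dh31-R (28.1 kb) and Wdr62 (26.7 kb), and the shortest were fan (0.901 kb), Larp4B (0.903 kb) and CG13144 (0.964 kb). The rows give 1 transcript per gene, so a gene with longer isoforms can stand here under a short one.

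Most down promoters lacked a divergent partner. A divergent partner is here another transcript of the series on the opposite strand whose start lies upstream within 1000 bases. Both are then read away from a shared region. Genes in none of the sheets were not counted as partners, so a promoter without one here may have one in the genome. Whether such misses differ between the classes was not tested. Such a partner was found for 23 of 332 down promoters (6.93%, 4.66 to 10.2%), 6 of 47 up promoters (12.8%, 5.98 to 25.2%) and 828 of 2131 unchanged promoters (38.9%, 36.8 to 40.9%). The intervals of the down and unchanged classes lay far apart, and those of the down and up classes overlapped. Counted the other way, 23 of 857 listed promoters with a partner were down (2.68%, 1.79 to 3.99%), against 309 of 1653 without one (18.7%, 16.9 to 20.6%).

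The difference by partner was seen at every arm with enough promoters and in short and long genes. Among transcripts under 5 kb, 2.22% of promoters with a partner were down (1.37 to 3.58%), against 14.8% of those without (12.9 to 16.9%). Among transcripts of 5 kb or more the shares were 5.11% (2.50 to 10.2%) with a partner and 28.2% (24.3 to 32.3%) without. On arm 2L the share was 3.29% with a partner and 19.9% without, on 2R 4.94% and 22.3%, on 3L 2.87% and 19.3%, on 3R 1.68% and 18.8%, and on X 0.763% and 12.7%, in the same order. Partner and length moved together, since 38.1% of the shorter transcripts and 22.1% of the longer ones had a partner. Among promoters without a partner the down share still went up with length, with 11.9% under 2 kb and 35.1% from 10 to 20 kb.

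**Figure D2:**
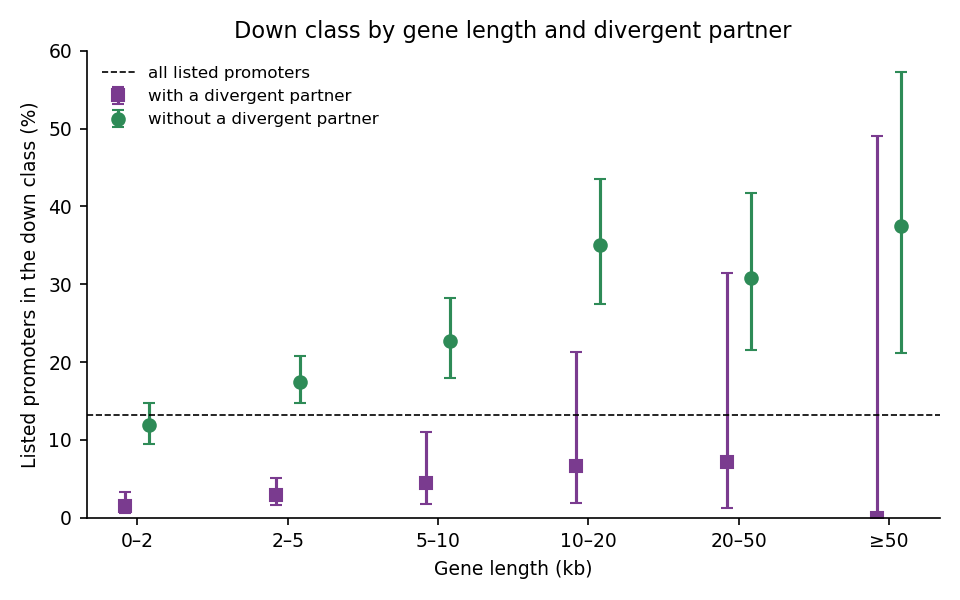
Share of listed promoters in the down class (y axis, %) by transcript length (x axis, kb) for promoters with a divergent partner within 1000 bases (squares) and without one (circles), with 95% Wilson intervals and the share of all listed promoters (13.2%) as a dashed line. Promoters without a partner lie above those with one in each length bin, and from 20 kb on the intervals overlap.

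Functional class and partner also moved together. A partner was present at 47.3% of promoters on the housekeeping lists and at 14.5% of those on the surface, signalling and developmental lists. Even without a partner, none of 99 housekeeping promoters was down (an upper bound of 3.74%), whereas 45 of 94 promoters of the surface, signalling and developmental lists were (47.9%, 38.1 to 57.9%). Among promoters in neither group of lists, 2.79% of those with a partner were down (1.83 to 4.23%), against 18.1% of those without (16.2 to 20.1%).

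The 23 down promoters with a partner stood beside partners of all classes. The partner was down for 4, unchanged for 5, up for 1 and not listed in the promoter comparison for 13. The 4 form 2 pairs, wun with wun2, which encode lipid phosphate phosphatases and start 884 bases apart, and CG17321 with CG33120, which start 608 bases apart. The pair that went opposite ways was CG31344, which was down, and Caf1-55, which was up, with starts 278 bases apart. Beside an unchanged partner stood Agpat2 (521 bases from prg), CG44838 (299 bases from CG3434), Cht2 (646 bases from CG8001), CtsB (420 bases from amrt) and hebe (429 bases from CG1663). PRO-seq reads carry the strand, so both promoters of such a pair can be read apart.

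Down promoters also stood farther from other promoters of the series. Distances here run to the nearest start among the 5528 transcripts listed anywhere in the series. The median was 7.37 kb in the down class (6.25 to 9.47 kb), 4.46 kb in the up class (2.86 to 5.95 kb) and 2.0 kb in the unchanged class (1.80 to 2.20 kb). These intervals did not overlap between any pair of classes. Transcripts in none of the 12 sheets of the series were not counted. In the comparisons of neighbours that follow, only the 2510 listed promoters of this comparison count.

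Where a listed neighbour lay near, down promoters tended to have another down promoter beside them. Of 133 down promoters whose nearest listed promoter was within 10 kb, 43 had a down promoter there (32.3%, 25.0 to 40.7%), beside 13.2% of all listed promoters. None of the 30 up promoters with such a neighbour had an up promoter there (an upper bound of 11.4%), beside 1.87% of all listed promoters. With so few up promoters, this count of 0 does not set the up class apart. Among unchanged promoters with such a neighbour, 1219 of 1317 had an unchanged one (92.6%, 91.0 to 93.9%), beside 84.9% of all. The 2 members of a pair are each counted, so these shares hold fewer independent events than promoters.

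The classes of neighbours were compared by distance. Where the nearest listed promoter was 2 to 5 kb away, it was down for 28.1% of down promoters (18.1 to 40.8%), against 9.37% of unchanged promoters (6.95 to 12.5%). At 10 to 20 kb the shares were 27.8% (18.8 to 39.0%) for down promoters and 13.1% (9.87 to 17.1%) for unchanged promoters, and at 20 to 50 kb 23.5% (15.6 to 33.8%) for down and 10.4% (7.43 to 14.3%) for unchanged. At 50 to 100 kb they were 18.4% (9.22 to 33.4%) for down and 16.2% (10.6 to 24.0%) for unchanged, with overlapping intervals. Below 2 kb there were 19 down promoters in all, 10 of them within 1 kb and 9 from 1 to 2 kb, and 4 and 6 of these had a down neighbour.

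**Figure D3:**
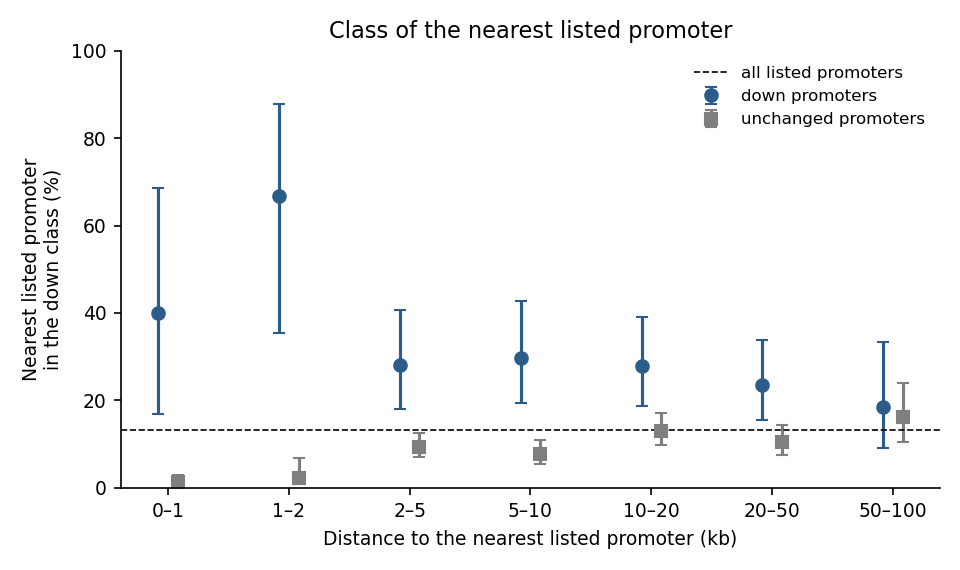
Share of promoters whose nearest listed promoter is in the down class (y axis, %) by the distance to it (x axis, kb), for down promoters (circles) and unchanged promoters (squares), with 95% Wilson intervals and the share of all listed promoters (13.2%) as a dashed line. Down promoters lie above unchanged promoters up to 50 kb, and the intervals overlap at 50 to 100 kb.

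Runs of consecutive listed promoters in the down class, with gaps of at most 50 kb, took in 104 of the 332 down promoters (31.3%). The down class made up 13.2% of all listed promoters, so some down promoters would adjoin by that share alone. How many would do so was not computed, and the runs are given as a description. There were 38 runs of 2 promoters, 8 runs of 3 and 1 run of 4, and the other 228 down promoters stood alone. The 9 runs of at least 3 held 28 promoters (8.43%). No up promoter stood beside another up promoter in such a run, but only 1.87% of all listed promoters were up.

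The longest run lay in the Tsp42E cluster of tetraspanin genes, at chr2R:2916418-2936050 in dm3, where Tsp42Eg, Tsp42Ei, Tsp42Ej and Tsp42El were down over 19.6 kb. Upstream of them, Tsp42Ef was unchanged, Tsp42Ee had no row in the promoter comparison, and Tsp42Ed on the opposite strand was down. Thus 5 of the 6 listed promoters of the cluster were down, and the unchanged one lay between down promoters on either side. These genes arose by duplication. The paper gives the number of uniquely mapped reads per library. Reads of 26 bases that allow up to 2 mismatches may still not separate close copies, which was not tested.

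**Figure D4:**
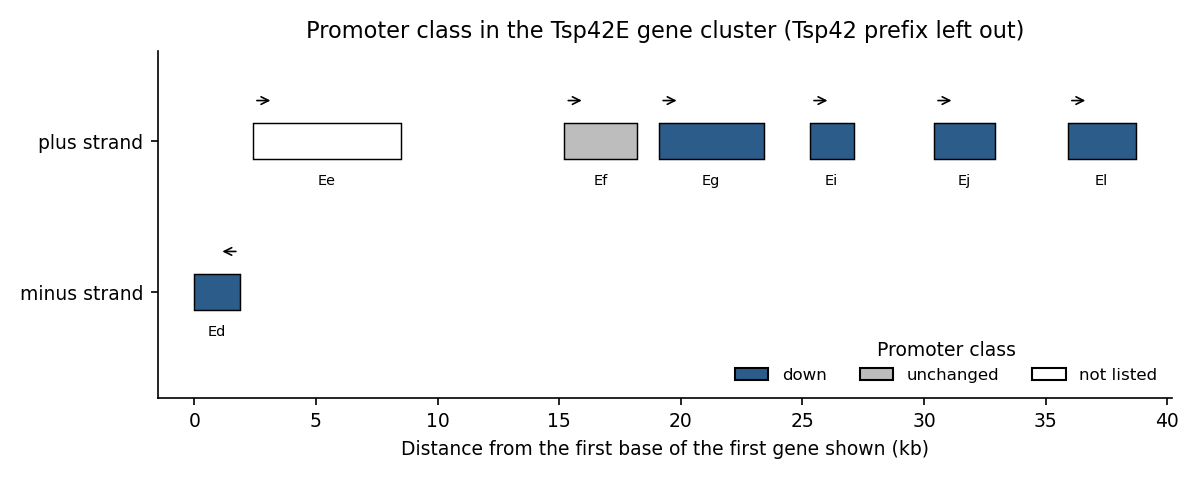
Map of the transcripts of the Tsp42E cluster, with distance from the first base of the first gene shown on the x axis (kb) and the strands on the y axis. Boxes are transcripts coloured by promoter class after Pbro RNAi against LacZ RNAi, arrows mark starts and direction, and Tsp42Ed, Tsp42Eg, Tsp42Ei, Tsp42Ej and Tsp42El are down, Tsp42Ef unchanged and Tsp42Ee not listed.

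The other runs of 3 held genes of mixed kinds. Wnt4 and wg, neighbouring Wnt ligands, formed a run with Ndae1, a sodium-driven anion exchanger, over 82.1 kb on 2L. On 3L, the neighbouring death genes rpr and skl formed a run with CG4306 over 65.6 kb, with 41.5 kb between the starts of rpr and skl. On 2L, tup stood with CG17321 and CG33120 over 39.9 kb, and CG31676 with twit and bero, which encode small membrane-anchored proteins, over 20.3 kb. The remaining runs of 3 were twz, CG10433 and CG15673 over 52.8 kb on 2R, CG44838, path and CG42673 over 122 kb on 3L, CG4998, ringer and CG4842 over 30.5 kb on 3L, and ry (xanthine dehydrogenase), CG11668 and CG7966 over 18.9 kb on 3R.

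Pairs of neighbouring genes of 1 family were down together as well, and those named here were chosen after their classes were seen. The collagen genes vkg and Col4a1 start 2.17 kb apart on opposite strands of 2L, at chr2L:5012144-5027437 and chr2L:5029612-5037114. The neighbouring aquaporin genes Drip and Prip start 6.61 kb apart on 2R. Other pairs were the receptor genes otk and otk2, and comm and comm2, of which comm acts in axon guidance. The P450 genes Cyp6a17 and Cyp6a23 start 1.88 kb apart, and Cyp12a4 and Cyp12a5 start 2.60 kb apart. Both P450 pairs are tandem copies for which short reads may not separate the genes.

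The share of down promoters also differed between chromosome arms. It was 14.2% on 2L (63 of 443, 11.3 to 17.8%), 17.0% on 2R (90 of 529, 14.1 to 20.5%), 13.6% on 3L (68 of 500, 10.9 to 16.9%), 12.3% on 3R (77 of 626, 9.95 to 15.1%) and 8.62% on X (33 of 383, 6.20 to 11.9%). The interval of X lay below that of 2R, while its upper end reached into those of 2L, 3L and 3R. The fourth chromosome had 1 down promoter of 20, too few to place it among the arms. Without a divergent partner the X share was 12.7% (9.14 to 17.4%), and the 2R share was 22.3% (18.4 to 26.9%). Up promoters made up 2.35% of those on X (9 of 383, 1.24 to 4.40%), 2.48% on 2L (1.39 to 4.39%), 1.32% on 2R (0.642 to 2.71%), 2.40% on 3L (1.38 to 4.15%) and 1.28% on 3R (0.649 to 2.50%), and all of these intervals overlapped.

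**Figure D5:**
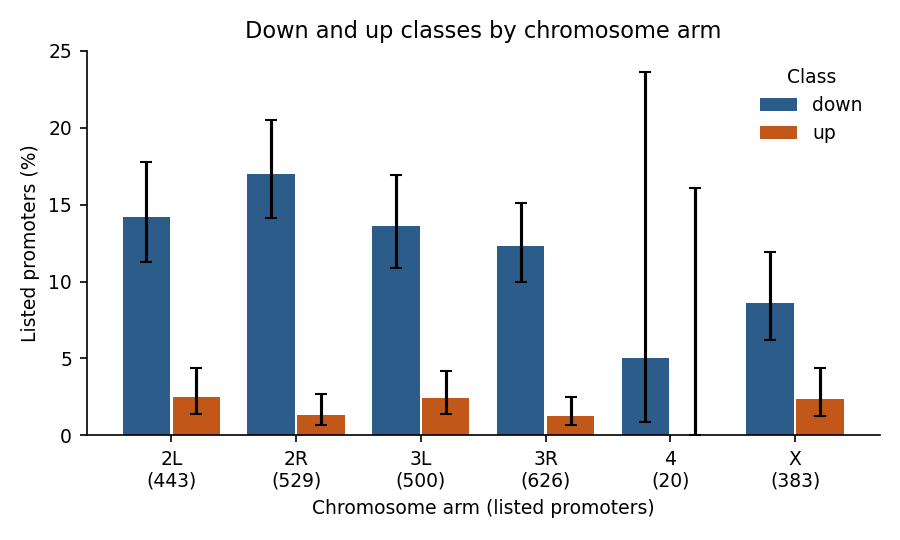
Share of listed promoters in the down and up classes after Pbro RNAi against LacZ RNAi (y axis, %) on each chromosome arm (x axis, with the number of listed promoters), with 95% Wilson intervals. The down share was highest on 2R (17.0%) and, among the arms with over 20 listed promoters, lowest on X (8.62%), and the up shares overlapped on all arms.

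Both strands held promoters of each class. The plus strand held 151 of 332 down promoters (45.5%), 26 of 47 up promoters (55.3%) and 1048 of 2131 unchanged promoters (49.2%). Genes known by a CG number only made up 35.5% of the down class, 23.4% of the up class and 27.6% of the unchanged class.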

How the data were processed

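PRO-seq libraries came from S2 cells after Pbro, BEAF or LacZ RNAi (6 libraries, 2 per treatment). The authors clipped the reads to 26 bases and mapped them to dm3 with Bowtie, allowing 2 mismatches. For nonoverlapping genes, the authors counted reads in the 50-base window richest in reads around the start. The authors compared treatments with DESeq2 at a false discovery rate of 5%. Because the richest window is used, a paused polymerase that moved need not lower the count. Versions are not given in the sources used here. The 12 deposited sheets give each transcript's position, name and strand, with the authors' log2 fold changes and adjusted p-values of the comparison. These 2 columns were read only to test what the sheets were split on, and are not reported. The sheets hold no counts per library. Mapped reads per library, which the study's supplement gives and which differ between the replicates of each treatment compared here, were not used.

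The 3 sheets of this comparison gave the classes. Starts and ends were taken as 1-based in dm3. Of 2510 genes, 2501 matched a RefSeq table of the fly genome (2455 by locus tag, 46 by symbol or synonym), which supplied current symbols only. Length, nearest listed start, divergent starts within 1000 bases, runs with gaps of at most 50 kb, and 38 gene lists were tabulated in Python 3.11.15 with numpy 2.4.6 and scipy 1.17.1, by code tested on made-up positions. Shares carry 95% Wilson intervals and medians order-statistic intervals. No test across libraries or genes was made. Named genes are list members that were called (up to 8 per list by alphabet), members of runs of at least 3 (all 9, as 8 tie), the first 30 up genes by alphabet with a name, the longest and shortest genes, and subunits of the remodelers; other names were chosen after their classes were seen. Members and lists were chosen with earlier results of these data known.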

Additional observations from a re-analysis of the deposited data

How the results depend on the processing

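Because each gene has 1 row, counting genes in place of transcripts changed nothing. The median length of down genes was 4.03 kb, and 3.71 kb on the autosomes alone. The share of down promoters with a down nearest neighbour within 10 kb (32.3%) was 34.2% within 5 kb, 28.7% within 50 kb and 31.0% without the longest run, a setting chosen after seeing the data. Unchanged promoters with an unchanged neighbour made up 92.6% within 10 kb and 90.4% within 50 kb. With symbols as the sheets write them, 48 down promoters were in a list, against 53 with synonyms. The Hedgehog and BMP list then had 0% down, because myo has another name there. The distance that defines a divergent partner was varied after seeing the data. Within 500 bases, 1.81% of down and 26.9% of unchanged promoters had one, and within 2000 bases 10.2% of down and 44.5% of unchanged promoters did.

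No paired analysis was possible because the sheets used hold no value per library. For the same reason, leaving out each replicate in turn was not run, and it is unknown which calls rest on 1 library. The searches for GAGAG and other promoter motifs, with their alternatives and base composition, were not run, since no promoter sequence of this build was at hand. Weak changes, between the limits of the called and unchanged sheets, are outside these data.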
